A study of Mus musculus with 6 samples.

Results

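Integrins are receptors made of an alpha and a beta chain, and 10 genes for such chains were examined in CD8+ T cells cultured with an inhibitor of the histone demethylase LSD1. The genes are the alpha chains Itga1, Itga2b, Itga4, Itgae, Itgal and Itgax and the beta chains Itgb1, Itgb2, Itgb3 and Itgb7. They were found by symbol among the 16281 genes of the deposited count table, and all 10 were present. The cells came from OT1 mice, C57BL/6 animals with the transgene Tg(TcraTcrb)1100Mjb, which gives most T cells a receptor for an ovalbumin peptide. Both groups carried this transgene, so neither shows a natural receptor repertoire. The cells were activated for 48 h with 2 μg/ml each of plate-bound anti-CD3 and soluble anti-CD28 plus 20 ng/mL IL-2, and were then expanded in IL-2 for 3 days. During both phases 3 cultures received 0.5 μM GSK2879552 (GSK) and 3 received vehicle (Veh). The sample labels name the spleen as tissue, the design text names spleens and lymph nodes, and neither gives the age of the mice.

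Each integrin pairs an alpha chain with a beta chain at the cell surface, and the pair decides which ligand is bound. In T cells, Itgal and Itgb2 form LFA-1, which holds a T cell to another cell through ICAM proteins. Itga4 pairs with Itgb1 or with Itgb7 in receptors for VCAM-1 and MAdCAM-1 on blood vessels, used when T cells enter tissues. Itgae pairs with Itgb7 and binds E-cadherin on epithelial cells. Itga1 with Itgb1 binds collagen, Itgb3 pairs with Itgav or Itga2b, and Itgax pairs with Itgb2. RNA shows neither the amount of a receptor on the surface nor whether it is active. In these bulk samples, fewer cells with a given RNA and less of that RNA per cell cannot be told apart.

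Promoter sequence, from 250 bases before to 50 bases after the RefSeq start of transcription (GRCm38.p6), was at hand for 6 of the 10 genes (Itga1, Itga2b, Itga4, Itgax, Itgb1 and Itgb7). The promoters of Itga4, Itgax and Itgb7 are printed 5′ to 3′ on the strand of the gene. The first and second belong to the chains with the greatest fold decreases among the 10, and the third belongs to the beta partner of Itga4 and Itgae. Capitals mark matches to the motifs searched.
Itga4, chr2:79255176-79255475, plus strand: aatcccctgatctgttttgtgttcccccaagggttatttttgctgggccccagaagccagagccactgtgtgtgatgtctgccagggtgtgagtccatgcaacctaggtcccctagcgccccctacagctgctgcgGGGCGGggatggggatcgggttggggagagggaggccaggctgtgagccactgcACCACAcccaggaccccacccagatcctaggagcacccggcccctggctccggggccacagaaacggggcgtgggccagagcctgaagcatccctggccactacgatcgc
Itgax, chr7:128129300-128129599, plus strand: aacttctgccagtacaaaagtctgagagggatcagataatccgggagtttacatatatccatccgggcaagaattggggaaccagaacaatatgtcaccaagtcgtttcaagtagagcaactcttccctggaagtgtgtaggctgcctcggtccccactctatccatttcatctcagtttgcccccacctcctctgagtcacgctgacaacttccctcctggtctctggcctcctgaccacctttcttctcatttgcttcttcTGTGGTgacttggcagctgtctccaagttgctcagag
Itgb7, chr15:102231886-102232185, minus strand: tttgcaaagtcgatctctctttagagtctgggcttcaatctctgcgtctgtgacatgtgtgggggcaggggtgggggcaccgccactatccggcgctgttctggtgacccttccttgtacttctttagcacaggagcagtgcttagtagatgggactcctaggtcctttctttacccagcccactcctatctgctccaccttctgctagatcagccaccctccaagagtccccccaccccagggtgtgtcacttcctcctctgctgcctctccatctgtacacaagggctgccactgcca

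The motifs were searched on both strands as exact letters, and no 2 of the matches overlapped. TGTGGT, the core of the RUNX motif, stands in the Itga4 promoter on the opposite strand, where it reads ACCACA, and in the Itgax promoter just after the start. It occurs in 16.8% of the 32817 promoters of the RefSeq table. GGGCGG, the core of the SP1 motif, occurs in the Itga4 and Itgb1 promoters and in 35.6% of all promoters. CGGAAG for ETS factors, AAATCA for GFI1 and TATAAA for the TATA box occur in 16.9%, 14.0% and 13.6% of all promoters, and none of them was found in the 6 windows. No motif was found in the Itgb7, Itga1 and Itga2b windows. The GC content was 64.3% for Itga4 and 56.3% for Itgb7.

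Counts summed to between 18288447 and 18918811 in the Veh samples and between 19149909 and 19846720 in the GSK samples. Of the 16281 genes, 11698 passed the filter on low counts of edgeR and were tested, including all 10 integrin chains. Values are CPM, that is each count scaled by its library total after TMM correction. Adjusted p-values are those of the quasi-likelihood test of edgeR with Benjamini-Hochberg adjustment over all tested genes, and calls required both an adjusted p under 0.05 and more than a 1.5-fold difference. With 3 samples against 3, an exact permutation test (two-sided) of a single value cannot give a p under 0.1. Among the T cell markers, Cd8a averaged 516 CPM (Veh) and 541 CPM (GSK), and the 9 markers of the T cell list summed to 3800 to 3910 CPM in Veh and 3845 to 3980 in GSK. The CD4 T cell markers Cd4 and Foxp3 summed to 3.47 to 5.00 CPM in Veh and 3.59 to 5.46 CPM in GSK.

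With GSK, 4 of the 10 chains were called lower, namely Itga4, Itgax, Itga2b and Itgb3, and 0 were called higher. Among all tested genes 4.09% were called lower and 2.22% higher, or 6.32% in either direction. At an adjusted p under 0.05 alone, Itgb7 and Itgb1 were also lower, which makes 6 lower chains, and Itgal was the 1 chain that was higher. On that criterion 15.5% of all tested genes were lower and 16.6% higher, or 32.1% in either direction. Itgb2, Itgae and Itga1 did not pass the test. The Veh and GSK ranges did not overlap for 8 of the 10 chains and for 46.7% of all tested genes. The median log2 fold change of the 10 chains was -0.59, against -0.0039 over all tested genes. The 10 chains and the gene lists below were chosen with earlier results of these data known. Setting them beside all tested genes therefore describes them and is not a test of the family.

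**Figure D1:**
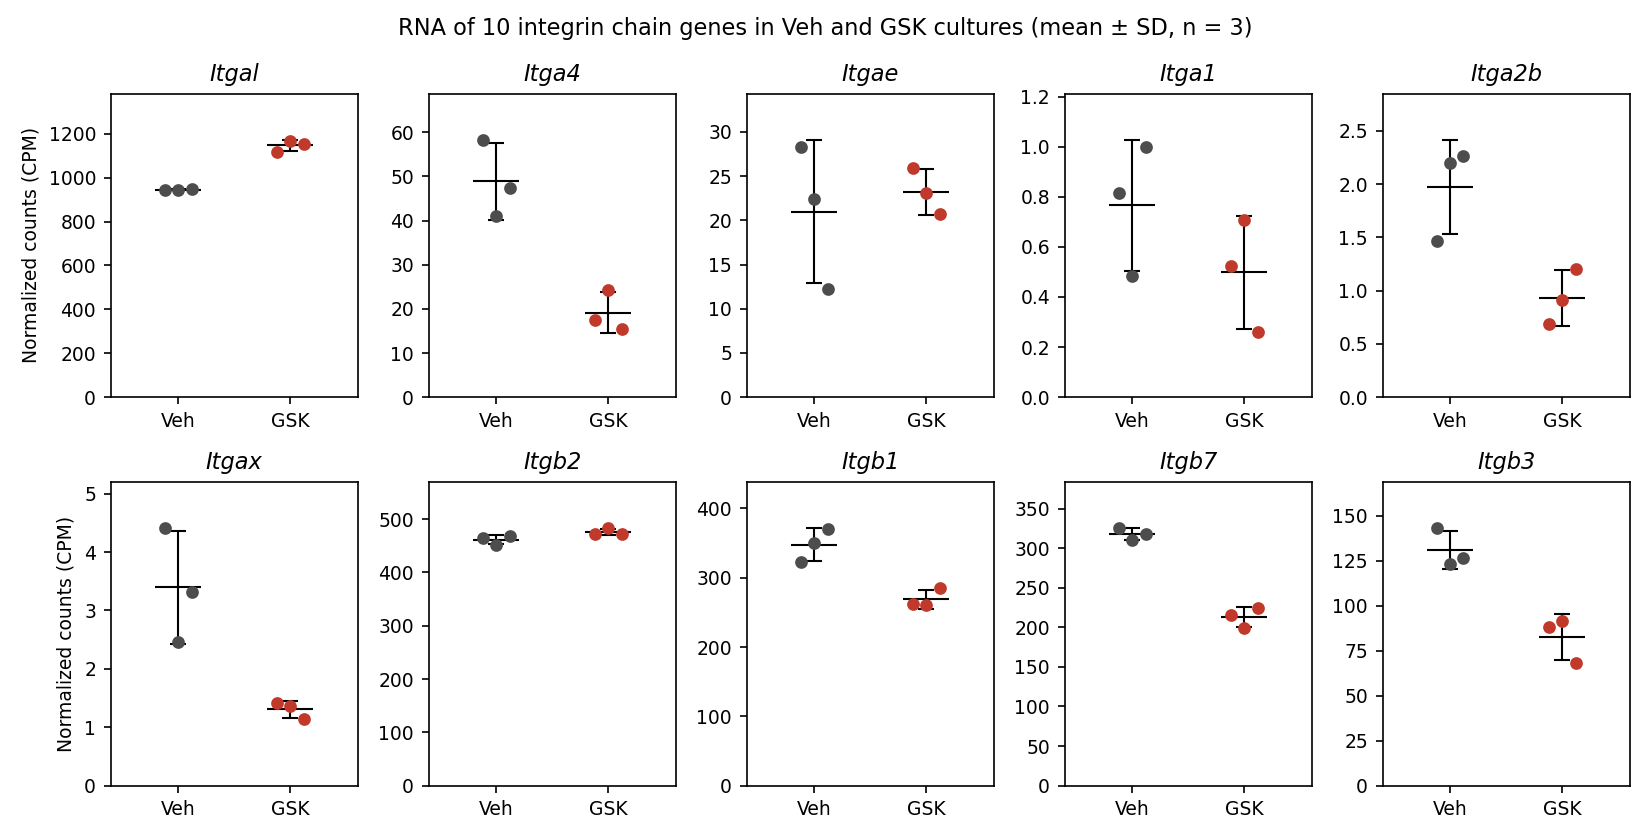
Normalized counts (CPM, vertical axes starting at 0, scaled separately for each gene) of the 10 integrin chains in the 3 Veh and 3 GSK cultures. Points are cultures, horizontal lines are means and bars are ± SD. All GSK points lie below all Veh points for Itga4, Itgb7, Itgb1, Itgb3, Itga2b and Itgax and above them for Itgal and Itgb2.

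LFA-1 was the integrin whose alpha chain rose. Itgal (chr7:127296260-127335138) was 943, 944 and 947 CPM in Veh and 1118, 1167 and 1155 CPM in GSK. The Veh cultures were nearly identical and all GSK cultures lay above them. Itgal rose 1.21-fold, from 945 ± 1.84 to 1146 ± 25.6 CPM (SD, n = 3), with a log2 fold change of 0.28 (SE 0.031) and an adjusted p of 4.99e-05 by edgeR. This increase is under 1.5-fold, so the gene was not called. Itgb2 (chr10:77530252-77565708), the beta chain of LFA-1, was 465, 451 and 467 CPM in Veh and 471, 483 and 472 CPM in GSK. All GSK values lay above all Veh values, but the gap was small, and edgeR gave an adjusted p of 0.379. The 95% interval of the Itgb2 fold ran from 0.977 to 1.09. For each Itgb2 transcript, per kb of exon, there were 0.952 ± 0.018 Itgal transcripts in Veh and 1.12 ± 0.017 in GSK (SD, n = 3), and the ratios of the groups did not overlap. With the length of the longest transcript these ratios were 1.17 and 1.37.

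The alpha 4 chain fell. Itga4 (chr2:79255426-79333123), whose promoter with the RUNX and SP1 letters is printed above, was 58.3, 41.1 and 47.3 CPM in Veh and 17.5, 24.3 and 15.5 CPM in GSK. The highest GSK culture stayed well below the lowest Veh culture. Itga4 fell 2.55-fold, from 48.9 ± 8.70 to 19.1 ± 4.64 CPM (SD, n = 3), with a log2 fold change of -1.35 (SE 0.21) and an adjusted p of 0.00573 by edgeR. The exons of Itga4 share 1124 bases with Cerkl on the opposite strand, a gene with a median count of 61 that did not pass the test (log2 fold change -0.36, adjusted p = 0.18 by edgeR). The strand setting of the counting is not given in the sources used here. The counts of Itga4 were 767 to 1072 in Veh and 297 to 481 in GSK. The part of reads from the shared bases in these counts was not tested.

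Both beta partners of Itga4 fell by less. Itgb7 (chr15:102215995-102231944), which also partners Itgae, was 325, 311 and 317 CPM in Veh and 216, 199 and 224 CPM in GSK. Its groups lay far apart compared with their spread. The decrease was 1.49-fold, from 318 ± 7.08 to 213 ± 13.0 CPM (SD, n = 3), with a log2 fold change of -0.58 (SE 0.048) and an adjusted p of 4.9e-06 by edgeR, the smallest of the 10 chains. It lay just under the 1.5-fold limit of a call, and the called chain nearest to that limit was Itgb3 at 1.58-fold. Itgb7 was called without Veh replicate 2 (1.51-fold), without GSK replicate 1 (1.504-fold) and without GSK replicate 3 (1.53-fold). Itgb1 (chr8:128685654-128733200), the partner of many alpha chains, was 323, 349 and 370.3 CPM in Veh and 262, 261 and 285 CPM in GSK. All 3 GSK cultures were below the Veh cultures. Itgb1 fell 1.29-fold, with a log2 fold change of -0.37 (SE 0.054) and an adjusted p of 0.000348 by edgeR. Per kb of exon, the Itga4 level divided by the Itgb1 level was 0.0414 in Veh and 0.0209 in GSK, and divided by the Itgb7 level 0.0304 and 0.0180. Neither ratio overlapped between the groups, and every GSK culture was below every Veh culture.

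Itgae, the alpha chain that pairs with Itgb7 in E-cadherin binding, did not pass the test. Itgae (chr11:73090583-73147446) was 28.3, 22.4 and 12.2 CPM in Veh and 25.9, 23.1 and 20.7 CPM in GSK. The groups overlapped, and Veh replicate 3 was by far the lowest culture. The log2 fold change was 0.15 (SE 0.32, adjusted p = 0.767 by edgeR), with a 95% interval of the fold from 0.622 to 1.98, so that neither a decrease nor an increase within it could be told at this spread. Without Veh replicate 3 the log2 fold change was -0.13, with an adjusted p of 0.486. The ratio of Itgae to Itgb7 per kb was 0.0399 ± 0.015 in Veh and 0.0662 ± 0.0091 in GSK (SD, n = 3) and did not overlap between the groups. The log2 of this ratio was 0.80 higher in GSK, against a log2 fold change of -0.58 for Itgb7 alone. The lowest ratio, 0.0233, was that of Veh replicate 3. Itgb7 passed its own test, as given above, and Itgae did not. The part of each chain in the ratio was not tested.

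The chains known from platelets, Itgb3 and Itga2b, fell. Itgb3 (chr11:104608000-104670476), which also pairs with Itgav, was 143, 122.95 and 127 CPM in Veh and 88.1, 91.7 and 67.9 CPM in GSK. The 2 groups did not overlap. Itgb3 fell 1.58-fold, from 131 ± 10.7 to 82.6 ± 12.8 CPM (SD, n = 3), with a log2 fold change of -0.66 (SE 0.12) and an adjusted p of 0.00721 by edgeR. Without GSK replicate 3 the decrease was 1.46-fold, which ended the call. Itga2b (chr11:102453297-102470122), the platelet partner of Itgb3, had counts of only 27, 41 and 43 in Veh and 13, 18 and 23 in GSK, or 1.47, 2.20 and 2.26 CPM against 0.682, 0.911 and 1.20 CPM. Its values were low throughout and still separate between the groups. The decrease was 2.12-fold, with a log2 fold change of -1.08 (SE 0.32) and an adjusted p of 0.0204 by edgeR. The Itga2b call was lost without Veh replicate 2 (adjusted p = 0.0683), without Veh replicate 3 (0.0759) and without GSK replicate 1 (0.0878). Itgav, the other partner of Itgb3, was on average 64.4 CPM (Veh) and 60.6 CPM (GSK) and did not pass the test (adjusted p = 0.324 by edgeR). Per kb, the Itgav level over the Itgb3 level was 0.272 in Veh and 0.409 in GSK, without overlap. Of 11 platelet and megakaryocyte markers, 6 were in the table, all under 1 CPM in every sample, and they summed to 0.158 to 0.218 CPM in Veh and 0.263 to 0.365 CPM in GSK.

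Itgax (chr7:128129547-128150657) encodes CD11c, best known from dendritic cells and also carried by some activated T cells. It was 4.41, 2.47 and 3.31 CPM in Veh, from counts of 81, 46 and 63, and 1.42, 1.37 and 1.15 CPM in GSK, from counts of 27, 27 and 22. The GSK cultures lay close together and below all Veh cultures. Itgax fell 2.58-fold, with a log2 fold change of -1.37 (SE 0.27) and an adjusted p of 0.00229 by edgeR. Of 15 myeloid and dendritic cell markers 10 were in the table and 5 were tested. Among the tested ones 1 was called lower and 1 higher, against 4.09% and 2.22% of all tested genes, and 3 did not pass the test. H2-Ab1 was the lower one (18.5 to 8.10 CPM, adjusted p = 0.0342 by edgeR) and Cd74 the higher one (8.19 to 18.4 CPM, adjusted p = 0.000185). The markers summed to 35.5 to 39.3 CPM in Veh and 29.2 to 41.3 CPM in GSK, and 6 were under 1 CPM in every sample. Without H2-Ab1, Cd74 and Cd68, which other cells also express, they summed to 1.05 to 2.39 CPM in Veh and 0.939 to 1.47 CPM in GSK. Of that shorter list 2 markers were tested, with log2 fold changes of -1.30 and 0.033, and neither passed the test. The part of myeloid and dendritic cells in the Itgax result was not tested.

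Itga1, the collagen-binding chain known from T cells that stay in tissues, was close to the limit of what was counted. Itga1 (chr13:114953096-115101964) had counts of 15, 9 and 19 in Veh and 10, 14 and 5 in GSK, which gives 0.766 ± 0.26 and 0.498 ± 0.23 CPM (SD, n = 3). The groups overlapped and no difference was detectable at this depth. The log2 fold change was -0.61 (SE 0.46, adjusted p = 0.335 by edgeR), with a 95% interval from -1.60 to 0.38.

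**Figure D2:**
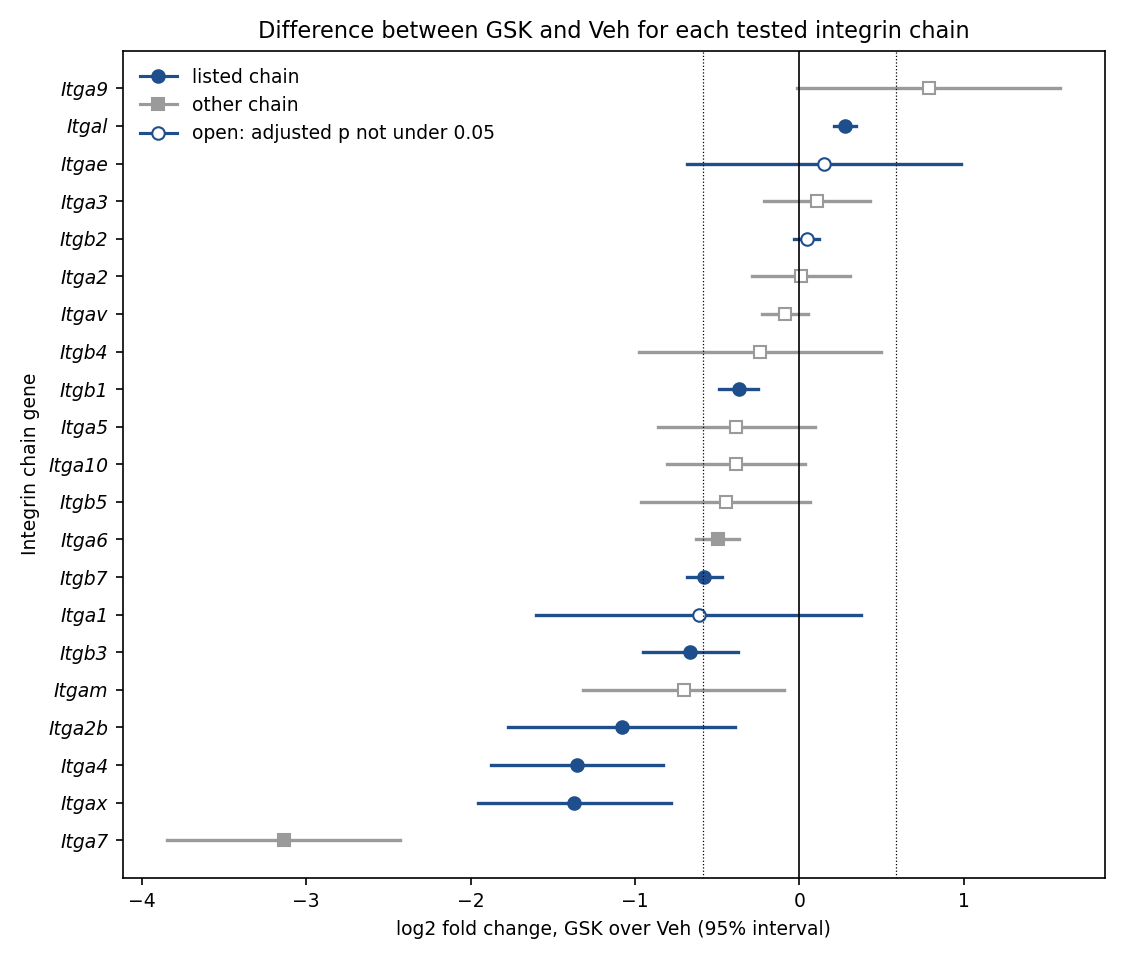
Log2 fold change of GSK over Veh (horizontal axis) with its 95% interval for each of the 21 tested integrin chains, ordered by the estimate. Blue circles are the 10 chains, grey squares are the other chains, open symbols have an adjusted p not under 0.05 and dotted lines mark 1.5-fold in either direction. Itga7 lies farthest to the left, and Itgal is the only filled symbol right of 0.

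Of the 16 remaining chains of the family, 15 were in the table and 11 were tested. Itga7 (chr10:128933818-128958282), a laminin-binding chain best known from muscle, had the largest decrease of all tested integrin chains. It was 48.2, 30.9 and 44.5 CPM in Veh and 4.83, 6.12 and 3.08 CPM in GSK. The cultures of each group were close to each other compared with the gap between the groups. Itga7 fell 8.78-fold, with a log2 fold change of -3.13 (SE 0.28) and an adjusted p of 0.000888 by edgeR, and its adjusted p was 0.0107 when the fold was tested against 1.5. Itga6, another laminin-binding chain, fell 1.41-fold, from 51.9 ± 2.48 to 36.8 ± 0.684 CPM (SD, n = 3; adjusted p = 8.99e-05 by edgeR). The ratio of Itga6 to its partner Itgb1 per kb overlapped between the groups, at 0.0679 in Veh and 0.0620 in GSK on average. By the longest transcript, which for Itga6 is much shorter than its merged exons, the ratios were 0.133 and 0.121.

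The other 9 tested chains did not pass the test. Among them Itga2, which binds collagen, was 20.2 CPM in Veh and 20.3 CPM in GSK. Itga3, which binds laminin, was 5.44 and 5.87 CPM. Itga5, the fibronectin receptor chain, was 3.86 CPM in Veh and 2.95 CPM in GSK, Itga10 4.03 and 3.08 CPM, Itgb5 4.52 and 3.32 CPM and Itgb4 1.14 and 0.966 CPM. Itga9 was 0.839 CPM in Veh and 1.45 CPM in GSK (adjusted p = 0.123 by edgeR). Itgam, the CD11b chain of myeloid and NK cells, was 2.44 CPM in Veh and 1.496 CPM in GSK (adjusted p = 0.0731), and without GSK replicate 2 its adjusted p was 0.0372. Itgam, Itgax and Itgad follow each other on chromosome 7, 11.1 kb and 3.72 kb apart, and Itgal lies 728 kb before Itgam. Itgad was too low to test, with counts of 12, 8 and 6 in Veh and 2, 3 and 0 in GSK. Itga8, with counts of 0 in Veh and 1 in each GSK sample, and Itgb6 and Itgb8 were not tested either. Over all 21 tested chains 5 were called lower and 0 higher, and the median log2 fold change was -0.39. Of the 5, 4 were among the 10 chains, which were chosen with earlier results of these data known, and 1, Itga7, was among the other 11. Among all tested genes 4.09% were called lower and 2.22% higher.

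**Figure D3:**
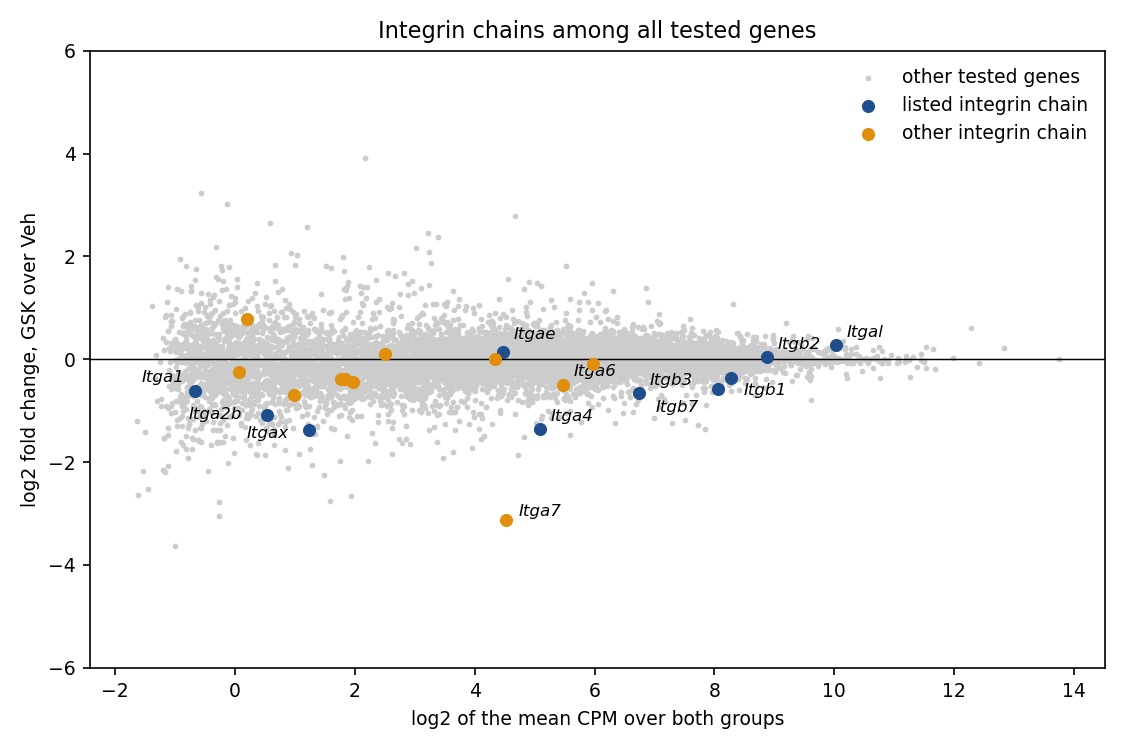
Log2 fold change of GSK over Veh (vertical axis) against the log2 of the mean CPM over both groups (horizontal axis) for all 11698 tested genes. Blue points are the 10 integrin chains, orange points the other tested integrin chains and grey points all remaining genes. Itgal and Itgb2 lie at the highest levels of the chains near 0, and Itga7 lies far below the bulk of genes at its level.

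The levels of the chains were compared with each other per kb of merged exon (GENCODE M21 on GRCm38). In Veh the order was Itgb2 at 151 CPM per kb, Itgal 144, Itgb7 115, Itgb1 85.2, Itgb3 22.2, Itgae 4.58, Itga4 3.50, Itgax 0.707, Itga2b 0.362 and Itga1 0.0412. The ranges of Itgae and Itga4 overlapped in Veh, and those of all other neighbours in the order did not. With GSK the order was Itgal at 175 CPM per kb, Itgb2 156, Itgb7 76.9, Itgb1 66.0, Itgb3 14.0, Itgae 5.07, Itga4 1.37, Itgax 0.273, Itga2b 0.171 and Itga1 0.0268, and no neighbours overlapped. Itgal and Itgb2 thus exchanged places in the order. With the length of the longest transcript in place of merged exons, Itgal lay above Itgb2 in Veh as well (181 against 155 CPM per kb).

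**Figure D4:**
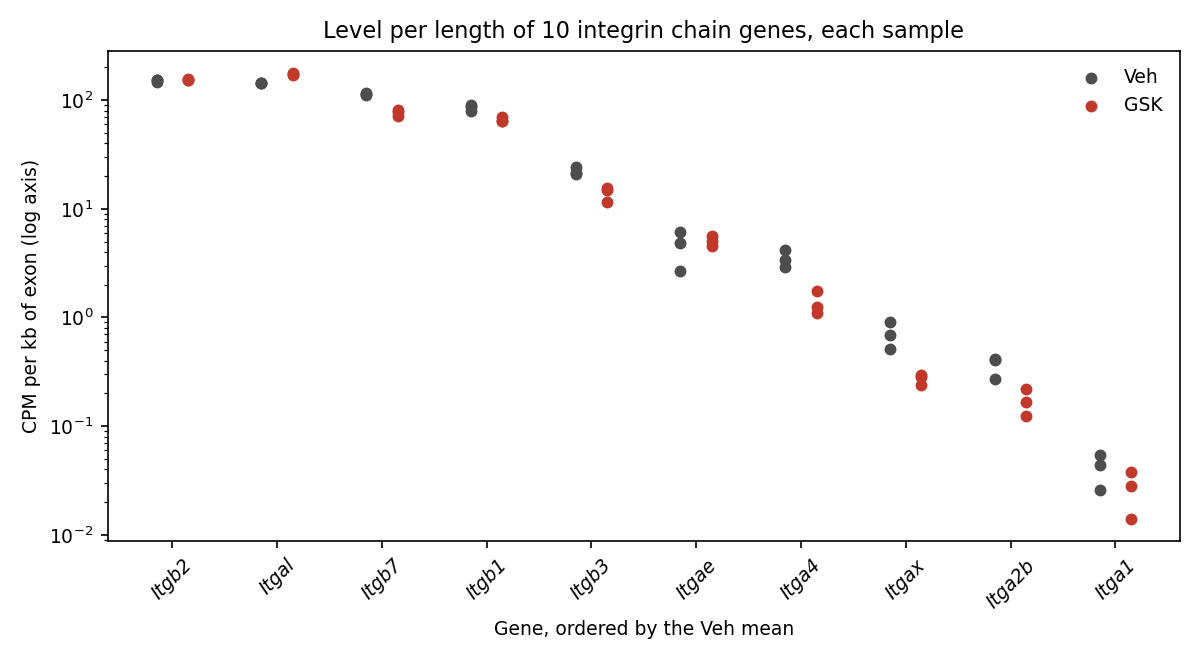
Level per kb of merged exon (CPM per kb, logarithmic axis) of the 10 chains in the Veh and GSK cultures. Points are cultures. Itgal and Itgb2 stand at the top in both groups, Itga4 moves from beside Itgae in Veh to below it in GSK, and Itga1 is lowest.

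Of the integrin pool per kb, Itgal and Itgb2 took larger shares with GSK. Itgal made up 81.8% ± 1.61 of the 17 alpha chains in Veh and 88.5% ± 0.809 in GSK (SD, n = 3). Itga4 went from 1.99% to 0.692% of the alpha pool, Itga7 from 2.89% to 0.292% and Itga6 from 3.27% to 2.07%, each without overlap. By the longest transcript, Itga7 went from 4.44% to 0.46% and Itga6 from 5.22% to 3.39%. The share of Itgae was 2.60% in Veh and 2.57% in GSK, and its groups overlapped. In the pool of 8 beta chains Itgb2 was 40.3% ± 0.337 in Veh and 49.7% ± 1.20 in GSK, although Itgb2 itself did not pass its test. Itgb7 went from 30.6% ± 0.673 to 24.5% ± 1.21, and Itgb3 from 5.92% ± 0.481 to 4.47% ± 0.748. The share of Itgb1 overlapped between the groups, at 22.7% in Veh and 21.02% in GSK.

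**Figure D5:**
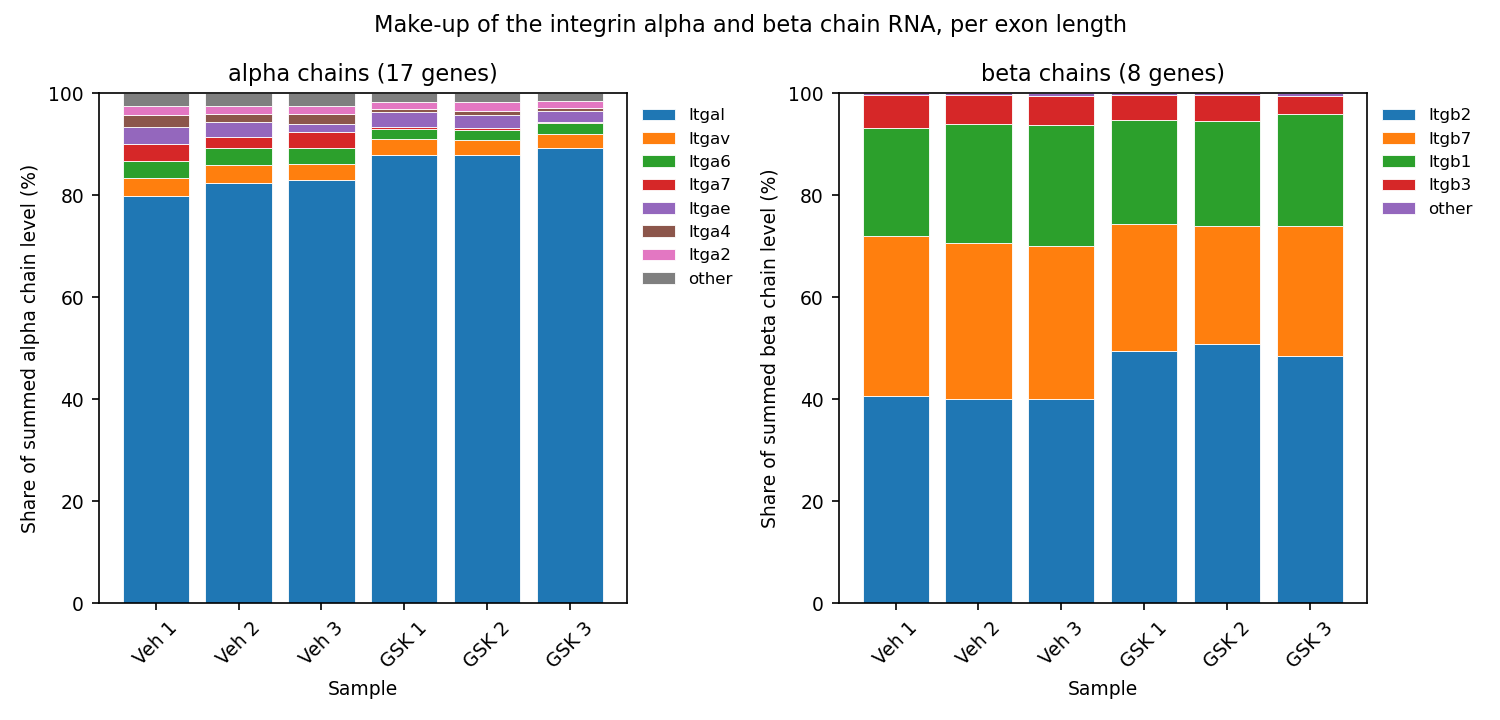
Share of each chain in the summed level per kb of the alpha chains and of the beta chains (percent, vertical axis) in each of the 6 cultures. Colours stand for chains. The Itgal share of the alpha pool is 79.95% to 83.0% in Veh and 87.9% to 89.4% in GSK, and the Itgb2 share of the beta pool is 40.1% to 40.7% in Veh and 48.6% to 51.0% in GSK.

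Of the genes that switch integrins on and couple them to the cytoskeleton, 16 of the 26 tested did not pass the test. Of 30 such genes 26 were tested, and 1 was called higher and 0 lower, against 2.22% and 4.09% of all tested genes. At an adjusted p under 0.05 alone 5 were higher and 5 lower, against 16.6% and 15.5% of all tested genes. The median log2 fold change was -0.0066. Ptk2, the focal adhesion kinase, was the called gene and rose 3.51-fold from a low level, 1.27 ± 0.524 to 4.47 ± 0.690 CPM (SD, n = 3; adjusted p = 0.000544 by edgeR). Rasgrp2, the activator of Rap1 in integrin signalling, fell from 226 to 177 CPM (adjusted p = 0.000137 by edgeR). Lims1 and Zyx, which link integrins to actin, fell by 0.30 and 0.28 on the log2 scale (adjusted p = 0.00114 and 0.00277 by edgeR).

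Of 18 integrin ligand genes 8 were tested, and 2 were called lower and 0 higher, against 4.09% and 2.22% of all tested genes. At an adjusted p under 0.05 alone 3 were lower and 1 higher, against 15.5% and 16.6% of all tested genes. Cdh1, E-cadherin and the ligand of the Itgae and Itgb7 pair, fell from 6.66 to 4.01 CPM (adjusted p = 0.00458 by edgeR). Spp1, the ligand osteopontin, fell from 11.6 to 6.28 CPM (adjusted p = 0.0295 by edgeR). Icam1, the ligand of LFA-1, rose from 60.8 to 73.6 CPM (adjusted p = 0.00403 by edgeR), whereas Icam2, also a ligand of LFA-1, fell from 18.5 to 15.3 CPM (adjusted p = 0.0337). The median log2 fold change of the tested ligands was -0.47.

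TGF-beta signalling and RUNX factors are known to control Itgae. All 10 genes of this list were tested and 0 were called, against 6.32% of all tested genes. At an adjusted p under 0.05 alone 6 were lower and 1 higher, against 15.5% and 16.6% of all tested genes. The median log2 fold change of the list was -0.29 and the highest was 0.38. The receptor genes Tgfbr2 and Tgfbr1 fell by 0.32 and 0.41 on the log2 scale (adjusted p = 0.000379 and 0.000447 by edgeR), and Runx3, a factor of CD8+ T cell identity, fell by 0.29 (adjusted p = 0.001). Itgae itself did not pass the test, as given above.

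Among the remaining marker lists, each given with its range, the part of other cells in the integrin results was not tested. The 9 T cell markers had 0 calls, with 2 higher and 4 lower at an adjusted p under 0.05 alone. Over all tested genes 6.32% were called and 32.1% passed the adjusted p alone. Of the T cell markers, Thy1 rose by a log2 fold change of 0.23, and Cd3g and Cd5 fell by 0.38 and 0.50 on the log2 scale. Of 7 B cell markers 2 were tested, and Cd22 was called higher (0.409 to 2.60 CPM). The other tested B cell marker had a log2 fold change of -0.41 and did not pass the test. The B cell list summed to 6.20 to 8.21 CPM in Veh and 8.03 to 9.31 CPM in GSK. NK cell markers summed to 9.62 to 10.7 CPM in Veh and 12.8 to 17.0 CPM in GSK, and Klre1 rose by a log2 fold change of 0.50 (adjusted p = 0.00926 by edgeR). Mast cell and basophil markers, of which 1 was tested without passing, summed to 5.39 to 6.54 CPM in Veh and 3.49 to 5.72 CPM in GSK.

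The genes most like the called chains were sought by the mean absolute difference over the 6 samples of the log2 CPM minus its Veh mean. Nearest to Itga4 were S1pr1, the receptor for leaving lymph nodes, at 0.0723, Tcf7, a transcription factor of naive and memory T cells, at 0.0914, and Igsf5 at 0.0964. S1pr1 went from 114 to 48.3 CPM between Veh and GSK, and Tcf7 from 299.6 to 124 CPM. Nearest to Itgax were Thra at 0.0653, Sema6c at 0.106 and H2-Ob at 0.111, and nearest to Itgb3 were Cercam at 0.0249, Aff3 at 0.0427 and Kdm5b at 0.0484. The measure keeps the difference between the groups, so genes with a fold change near that of the chain come out as nearest. The log2 fold changes of S1pr1 and Tcf7 were -1.235 and -1.275, against -1.35 for Itga4. These distances describe the 6 samples and were not tested.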

How the data were processed

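RNA of 3 Veh and 3 GSK cultures was measured by poly(A) RNA-seq with a stranded kit. Per the labels and the study's methods, the authors trimmed reads with Trimmomatic, mapped them to GRCm38 with HISAT2 (2.1.0) and counted reads per gene with HTSeq (0.11.2). The deposited values are whole counts without normalization. The annotation release and strand setting are not given in the sources used here. The submitters' processing notes also list Cufflinks (2.2.1) and DESeq2 (1.22.2).

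Counts were compared in R (4.3.3) with edgeR (4.0.16), by its quasi-likelihood test in robust mode after TMM scaling and filterByExpr, with Benjamini-Hochberg adjustment over all 11698 tested genes. Calls required both an adjusted p under 0.05 and more than a 1.5-fold difference. Standard errors were derived from the test statistic. The code was run on counts simulated from the dispersions that edgeR fitted to these data. Such a run cannot show whether the p-values hold for the real counts. Total counts of 18288447 to 19846720 per sample limit precision for low chains such as Itga1 and Itga2b. The labels do not name the animals, and the paper's text gives 3 separate OT1 mice. No replicates agreed within sampling noise.

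The 10 chains and all gene lists were chosen with earlier results of these data known. Named were the 10 chains, every other integrin chain in the table, the called genes of each other list with up to 3 uncalled genes of smallest p among those at an adjusted p under 0.05, and the 3 genes nearest to each of the 3 called chains with the smallest p. Cd8a, Cerkl, Cd4, Foxp3 and Cd68 were named in addition. Gene positions and lengths are from GENCODE M21, and promoters are from RefSeq. Alternatives were DESeq2 (1.42.0), RLE size factors, other filters, a replicate block, a test against a 1.5-fold change, calls by adjusted p only, and fits that each left out a sample.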

Additional observations from a re-analysis of the deposited data

How the results depend on the processing

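Over the alternatives, 108 of 119 values for the 10 chains kept their direction and their side of an adjusted p of 0.05, 10 lost significance and 1 reversed. Tested against 1.5-fold, 69 genes were higher and 65 lower in place of 260 and 479, and of the 10 chains 0 were called lower and 0 were higher or lower at an adjusted p under 0.05 (adjusted p = 0.116 for Itgax, 0.169 for Itga4, 0.731 for Itga2b and 1 for Itgb3 by edgeR). With the adjusted p alone, 1941 genes were higher and 1819 lower, and 1 chain was higher. When each sample was left out in turn, the log2 fold change of Itgae ran from -0.13, its reversed value without Veh replicate 3, to 0.42. That of Itga2, near 0 in the report, ran from -0.19 to 0.10, and was -0.029 without Veh replicate 2. Leaving out a sample left 3 or 4 chains called lower, but not always the same ones. Itga4 and Itgax were called in all 6 of these fits. Itga2b was not called without Veh replicate 2, Veh replicate 3 or GSK replicate 1, and Itgb3 was not called without GSK replicate 3. Itgb7 was called without Veh replicate 2, GSK replicate 1 or GSK replicate 3. With DESeq2 all 4 called chains were called, with adjusted p from 3.96e-11 for Itgb3 to 0.0422 for Itga2b. Itga1 was not tested with a minimum of 1 CPM in 3 samples. The alternatives for shares and ratios were chosen after seeing the data, namely leaving out each sample for shares, and the longest transcript as length for both, which moved the gain of Itgal from 6.67 to 8.54 percentage points.

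The groups share replicate numbers 1 to 3 in the labels, but samples with the same number, each taken relative to its group mean, correlated at -0.0515, -0.0814 and 0.164 across genes, so the numbers were not taken as pairs. With the replicate block 253 genes were called higher and 447 lower, the called chains stayed at 4, and no call of the 10 chains changed. Itga4 then had a log2 fold change of -1.36 and Itga2 reversed to -0.0052. For Itgae the log2 fold change with the block was 0.20, with a smaller SE of 0.16, and it did not pass the test (adjusted p = 0.385 by edgeR).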
